A study of Homo sapiens with 4 samples.

Results

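Gene expression in confluent HEK293 cells given siRNA against CDC73 was compared with that in confluent HEK293 cells given control siRNA. The comparison rests on 2 of the 4 arrays of the study, chosen by their labels, with 1 array for each siRNA; the other 2 arrays hold sparse cells with the same 2 siRNAs. HEK293 is an established human line of embryonic kidney origin that carries adenoviral E1A and E1B, which bind RB proteins and p53. Cells of all groups received 100 pmol of siRNA, were replated after 24 hours onto a 35 mm dish (confluent) or a 100 mm dish (sparse), and were harvested 24 hours later. Whether each dish was transfected separately is not stated in the labels. Since each group has 1 array, differences are described by their size and carry no test.

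CDC73, also called parafibromin, is a subunit of the PAF1 complex. This complex travels with RNA polymerase II, helps it through chromatin, and is needed for ubiquitylation of histone H2B and the histone methylation linked to it. CDC73 also binds beta-catenin and GLI factors, the end points of the Wnt and Hedgehog pathways, and it is a tumour suppressor in parathyroid tissue. The complex takes part as well in the 3′ end processing of transcripts, among them those of histone genes.

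Levels are normalized log2 intensities, and a difference is the CDC73 siRNA level minus the control level, so that 1 on this scale is 2-fold. A gene counted as detected on an array at a detection p under 0.01, the share of olfactory receptor probes with at least its signal, and as measured when detected on at least 1 of the 2 confluent arrays. Of 18474 named genes, 10497 were measured: 9660 on both arrays, 435 on the control array only and 402 on the CDC73 siRNA array only. Total signal was 28273400 on the control and 22948100 on the CDC73 siRNA array, a gap that the normalization removes. The number of arrays limits the precision, and the disagreement between probes of a gene, with an SD per probe of 0.328 over 1781 genes, was the only error that the files allowed.

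The knockdown itself was not measurable. The single CDC73 probe was under the detection limit on all 4 arrays, at signals of 98.3 and 90 on the control and CDC73 siRNA arrays of confluent cells and 72.3 and 83.5 on those of sparse cells, where limits lay between 103 and 123. The siRNA groups therefore rest on the labels. Of the partner subunits, RTF1, needed for H2B ubiquitylation, had the largest difference in the complex (0.56). PAF1, CTR9, LEO1 and SKIC8 differed by 0.21, 0.29, -0.20 and -0.24, and a second probe of CTR9 and of LEO1 had the opposite sign to the brightest one. Among 12 HEK293 marker genes on the array, 8 were measured in these cells and 4 (NEFM, INA, PAX2 and PAX8) were not. Of 28 genes that mark other cell types, 10 were measured and none passed 2-fold (5.79% of all measured genes in either direction). The 10 were CD14, COL1A1, COL3A1, LUM, PDGFRB, CDH1, KRT19, PECAM1, VWF and PMEL. The brightest was KRT19, at 10.31 with control siRNA in confluent cells.

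In confluent cells 240 genes (2.29% of those measured) passed 2-fold on the higher side with CDC73 siRNA and 368 (3.51%) on the lower side, 5.79% in all. At the edge of the limit, ZNF695 and SRA1 lay just inside at 1.0004 and 1.0019, and DYNC1H1 and SMIM29 just outside at 0.9995 and 0.9985. On the lower side GIT2 and SNX22 were just inside at -1.0001 and -1.0003, and MAP3K14 and COLEC12 just outside at -0.9972 and -0.9967. Dim genes made up much of both groups. The 2625 dimmest measured genes held 94 of the higher and 142 of the lower ones, the 2624 brightest 29 and 56, and 61 higher and 88 lower genes were detected on 1 array only. The balance of directions depended on the scaling. Quantile normalization fixes the median of all genes near 0 (-0.0024). Scaling each array by the median of all its probes put it at -0.40 and gave 62 higher and 1240 lower genes. Median scaling by probes detected on all 4 arrays put it at 0.09 and gave 383 and 238. Relative to the median of all genes, both median scalings gave 269 higher and 340 lower, again more lower than higher. Every direction below is thus relative to the median of all measured genes, of which 49.7% were higher and 50.2% lower by any size.

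**Figure D1:**
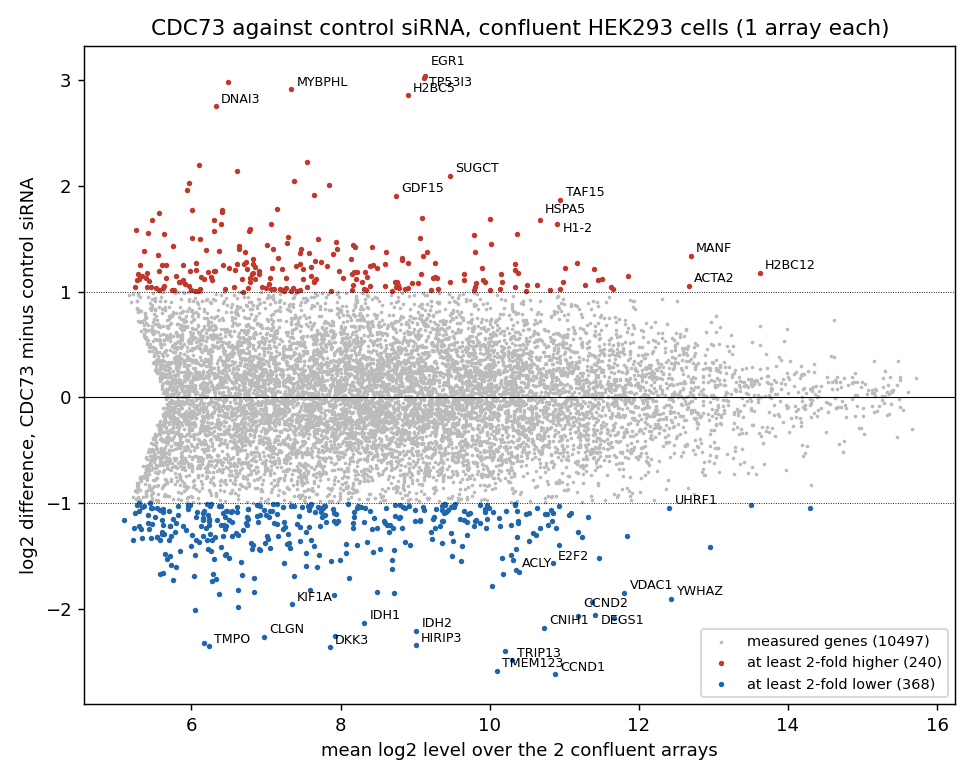
Log2 difference between CDC73 and control siRNA against the mean log2 level over the 2 confluent arrays, 1 point a gene. Dotted lines mark 2-fold; 240 genes lie at or above the upper line and 368 at or below the lower one, and the spread narrows from dim to bright genes.

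The genes with the largest differences had varied functions. EGR1, an immediate early zinc finger transcription factor, was at 7.62 with control and 10.66 with CDC73 siRNA, 8.22-fold higher. TP53I3, a quinone oxidoreductase and p53 target, was 8.08-fold higher (7.61 and 10.63). H2BC5, a histone H2B gene, was 7.23-fold higher (7.47 and 10.33), and both of its detected probes passed 2-fold. A difference of 4-fold or more was reached by 13 genes on the higher side, among them the mitochondrial enzyme gene SUGCT (2.09), the globin CYGB (2.04) and MIR99AHG, the non-coding host gene of a microRNA cluster (2.01). Just below came TAF15, an RNA-binding protein of the FET family, at 10.01 and 11.88, with a second probe at 1.77.

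On the lower side 17 genes reached 4-fold. CCND1, the D-type cyclin that starts G1 progression, was at 12.19 with control and 9.57 with CDC73 siRNA, 6.13-fold lower. TMEM123, a mucin-like surface protein, was 5.99-fold lower (11.38 and 8.80). TRIP13, an ATPase that remodels the spindle checkpoint protein MAD2, was 5.59-fold lower (11.54 and 9.05). The secreted protein DKK3 stood at -2.36, with its second detected probe at -2.07, and CNIH1, a cargo receptor of ER exit, at -2.17, with 2 further probes at -1.12 and -1.23. YWHAZ, a 14-3-3 protein (-1.90), VDAC1, a channel of the outer mitochondrial membrane (-1.85), and the neuronal kinesin KIF1A (-1.96) followed. In the processing setting with its smallest value YWHAZ was at -0.86. NBPF9 (-2.09) and NBPF10 (-1.93) belong to a family of near-identical copies whose probes may not separate them.

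Genes with several probes give a check within the arrays. Among 2058 genes with at least 2 probes detected on both confluent arrays, 102 passed 2-fold by the brightest probe. All detected probes shared its sign in 90 of these, and all passed 2-fold in 36. The 14 higher genes of this kind included H2BC5, H2BC12, TAF15, EMC6, a subunit of an ER membrane protein insertase (1.21), PIR, a nuclear iron-binding protein (1.14), PANK1, a kinase of coenzyme A synthesis (1.06), ENSA, an inhibitor of the phosphatase PP2A (1.14), and the stem cell factor SOX2 (1.01). The 22 lower ones included CCND2, DEGS1, ACLY, BID, CENPE, LEF1, the forkhead factor FOXO3 (-1.21), the chaperonin subunit CCT6A (-1.54), the splicing factor SRSF3 (-1.08) and MASTL, a mitotic kinase that acts on ENSA (-1.21). In 23 genes, by contrast, probes differed by over 0.5 in both directions; beta-catenin (CTNNB1) is one, with probes from -0.69 to 0.57, and SPTLC1, of sphingolipid synthesis, another, with probes from -1.07 to 0.97.

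Genes of G1 phase and its passage into S phase were mostly lower, in a list that also holds RB family genes, which restrain that passage. Of 16 measured G1 cyclins, kinases and RB family genes, 13 were lower and 4 at least 2-fold so, with a median of -0.42, against 3.51% of all measured genes that were 2-fold lower and a median near 0. Beside CCND1, the cyclin CCND2 was at 12.21 and 10.15 (-2.06, second probe -1.49) and their kinase CDK6 at 8.91 and 7.52 (-1.39). The third D-type cyclin, CCND3, was at -0.74. CCNY, a membrane-bound cyclin, was at -2.40 by its brightest probe but at -0.46 by another. CDK7 and MNAT1, which with cyclin H activate other cyclin-dependent kinases, were at 0.97 and 0.92, while cyclin H (CCNH) was at -0.46. None of 7 CDK inhibitors was 2-fold higher (2.29% of all measured genes). Of these, p21 (CDKN1A) was at -0.19, p15 (CDKN2B) at 0.86, and CDKN3, a phosphatase of CDK2, was lower by 2-fold (-1.07). A lower level in such a sample of many cells can reflect fewer cells in a phase or less RNA in each, which cannot be told apart here.

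E2F2, a transcription factor of S phase genes, was at 11.63 with control and 10.06 with CDC73 siRNA, a difference of -1.57, the only one past 2-fold among 13 measured E2F factors and partners (median -0.17). Genes of the replication fork and of nucleotide supply had a median of -0.31, with 20 of 29 lower. UHRF1, which directs maintenance methylation of DNA, was at 12.93 and 11.89 (-1.04). RRM2, a subunit of ribonucleotide reductase, was at -0.95, and the maintenance methyltransferase DNMT1 at -0.68, both short of 2-fold. Of the subunits of the MCM2 to MCM7 replicative helicase, MCM3 was at -0.12 and the others lay between -0.46 (MCM5) and -0.93 (MCM4), yet the whole list of 22 origin licensing genes had a median of -0.05. MCM4 was at -0.25 in the processing setting with its smallest value. PCNA, the sliding clamp, was at 0.01 and geminin (GMNN), the licensing inhibitor, at 0.60.

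Mitotic genes were also mostly lower, by smaller values. Of 24 kinases, cyclins and regulators 20 were lower, none by 2-fold, with a median of -0.30; WEE1, the kinase that holds CDK1 inactive, was at -0.95, CDK1 at -0.65 and PLK1 at -0.50, whereas cyclin B1 (CCNB1) was at 0.45. Of 42 spindle and kinetochore genes 30 were lower and 3 at least 2-fold lower (3.51% of all measured genes), with a median of -0.25. Those 3 were TRIP13, the cytokinesis scaffold ANLN (9.58 and 8.42, -1.17) and the kinetochore motor CENPE (-1.04, second probe -1.16). The topoisomerase TOP2A was at -0.93 and INCENP, of the chromosomal passenger complex, at 0.90. Promoters of this group often carry the CHR element, the site by which cell cycle repressor complexes hold such genes low outside G2 and M. The letters TTTGAA, on either strand, were in 75.7% of 37 spindle gene promoters with a sequence and 47.4% of 19 of the mitotic kinase list, against 9.9% of 8608 measured genes and 15.4% of 27305 promoters. The promoters of ANLN and TOP2A (RefSeq, GRCh38.p14, from 250 bases before to 50 bases after the first start listed for the gene) are given as examples, with these letters in capitals; ANLN lies on chr7:36389612-36389911, plus strand, and TOP2A on chr17:40417847-40418146, minus strand.
ANLN: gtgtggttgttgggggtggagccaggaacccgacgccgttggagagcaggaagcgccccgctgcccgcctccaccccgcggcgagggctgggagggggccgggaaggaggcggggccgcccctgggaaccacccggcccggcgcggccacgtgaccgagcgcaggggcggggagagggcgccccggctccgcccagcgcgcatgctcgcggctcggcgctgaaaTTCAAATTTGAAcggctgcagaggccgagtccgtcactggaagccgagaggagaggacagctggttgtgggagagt
TOP2A: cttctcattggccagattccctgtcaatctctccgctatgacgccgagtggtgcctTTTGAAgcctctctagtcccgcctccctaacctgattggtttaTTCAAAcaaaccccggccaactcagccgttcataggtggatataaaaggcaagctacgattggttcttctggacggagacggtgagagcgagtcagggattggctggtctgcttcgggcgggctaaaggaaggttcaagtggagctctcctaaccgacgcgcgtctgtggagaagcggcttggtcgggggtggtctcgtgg
Each window held 2 matches. Among the 368 genes that were 2-fold lower, of which 283 had a promoter sequence, the share was 10.2%, near that of measured genes.

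Genes of DNA repair by recombination followed. Of 23 measured homologous recombination and Fanconi genes 16 were lower (median -0.15). FANCC, of the Fanconi core complex, was not detected with CDC73 siRNA and lower by at least 1.06 on the log2 scale, and the exonuclease EXO1 was at -1.07. BRCA1 was at 0.21.

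**Figure D2:**
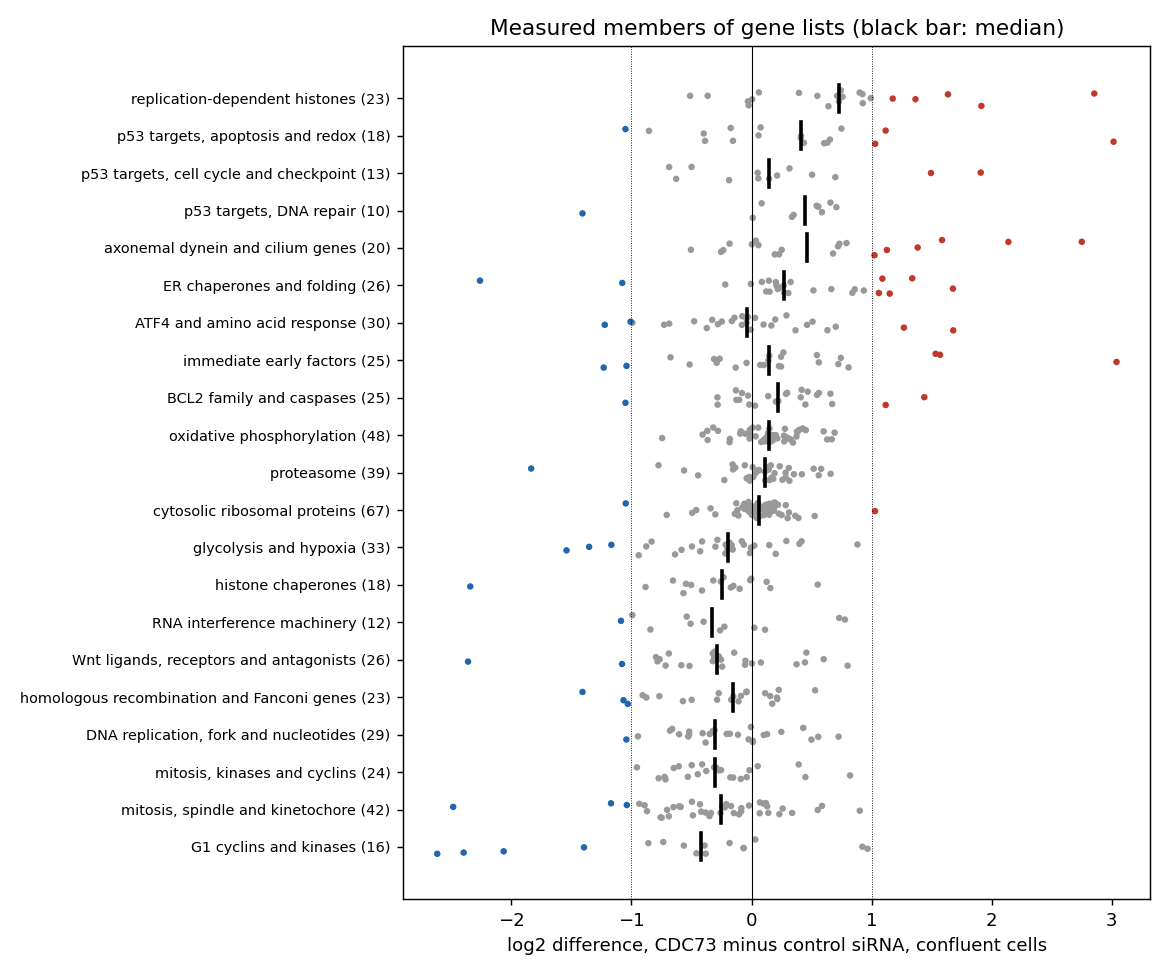
Log2 difference between CDC73 and control siRNA in confluent cells for the measured members of 21 gene lists (number in brackets), 1 point a gene, with members past 2-fold in red (higher) or blue (lower) and the list median as a black bar. Replication-dependent histones have the highest median (0.73) of the lists drawn and G1 cyclins and kinases the lowest (-0.42).

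Replication-dependent histone genes were mostly higher, unlike the replication machinery. Of 64 replication-dependent histone genes in the list 59 were on the array and 23 measured, 17 of them on both arrays. The rest were detected with CDC73 siRNA only, so they entered the count through the array where they were higher. The median was 0.73, and 0.74 over the 17 detected on both arrays. In all, 19 of the 23 were higher, 5 at least 2-fold and none lower by 2-fold (2.29% and 3.51% of all measured genes). The 5 were H2BC5, H2AC6 (6.68 and 8.60, 1.91), the linker histone H1-2 (10.09 and 11.72, 1.64), H4C8 (1.36) and H2BC12 (13.03 and 14.21, 1.18, second probe 1.68). The H2A, H2B, H4 and linker classes were thus represented, whereas none of the 4 measured H3 genes was detected on both arrays, and H4C3 (-0.51) and H4C12 (-0.37) were lowest. Without a detection filter, which brings in 36 undetected genes, the list median was 0.11, the lowest of any setting. These transcripts normally end in a stem-loop without a poly(A) tail, and the labelling kit named in the labels primes on such tails, so the arrays read mainly tailed forms; near-identical copies may also share a probe. Whether total histone mRNA differed was not tested.

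Replacement histones, whose genes are expressed through the cell cycle from tailed transcripts, were not higher as a group. Of 11 measured, 8 were lower, with a median of -0.15; H3-3B, an H3.3 gene, was at -0.70 and H2AZ1 at -0.52. H2AJ, an H2A variant, was the one member past 2-fold, at 8.48 and 9.85 (1.37). Among 15 genes of histone mRNA processing, NPAT, the activator of histone gene transcription, was at -1.07 and CPSF2, a subunit of the cleavage factor, at -1.03, while the stem-loop binding protein SLBP was at 0.13. Histone chaperones were lower in 15 of 18 genes, with a median of -0.24. HIRIP3, named for its binding to the chaperone HIRA, was at 10.18 with control and 7.84 with CDC73 siRNA, 5.07-fold lower, and the next, ASF1A, at -0.88.

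Promoters of 2 histone genes that were higher are shown with matches to elements usual for this family, TATAAA, the octamer ATTTGCAT and CCAAT (on either strand), in capitals. H2BC5 lies on chr6:26157871-26158170 and H2AC6 on chr6:26123922-26124221, both on the plus strand (RefSeq, GRCh38.p14).
H2BC5: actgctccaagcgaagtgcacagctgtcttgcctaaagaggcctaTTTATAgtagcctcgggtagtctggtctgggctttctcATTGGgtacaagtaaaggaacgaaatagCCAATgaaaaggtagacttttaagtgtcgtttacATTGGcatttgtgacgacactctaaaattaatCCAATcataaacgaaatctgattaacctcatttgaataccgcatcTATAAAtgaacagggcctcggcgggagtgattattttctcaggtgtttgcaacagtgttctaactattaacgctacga
H2AC6: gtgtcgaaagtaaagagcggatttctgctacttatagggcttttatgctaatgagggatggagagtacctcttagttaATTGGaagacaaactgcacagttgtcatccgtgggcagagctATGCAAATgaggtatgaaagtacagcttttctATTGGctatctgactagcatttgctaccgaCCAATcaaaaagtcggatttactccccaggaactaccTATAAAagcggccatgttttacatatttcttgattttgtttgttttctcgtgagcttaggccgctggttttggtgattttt
H2BC5 had 2 TATAAA and 4 CCAAT matches and no octamer, and H2AC6 had 1 TATAAA, 3 CCAAT and 1 octamer match. Of 22 measured histone genes with a promoter 72.7% held TATAAA, 81.8% CCAAT and 11 the octamer, against 5.67%, 37.7% and 1.29% of measured genes. Histones with the same elements differed in response: H2BC11, with 4 TATAAA matches and 1 octamer, was at 0.74, and H2AC11, with 3 and 1, at -0.02.

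Chaperones of the endoplasmic reticulum (ER) were mostly higher. All 26 measured members of the list were detected on both arrays; 22 were higher and 4 lower, with 5 at least 2-fold higher, 2 at least 2-fold lower (2.29% and 3.51% of all measured genes) and a median of 0.27. HSPA5 (BiP), the HSP70 chaperone of the ER lumen, was at 9.83 with control and 11.51 with CDC73 siRNA, a difference of 1.68. MANF, a secreted ER stress protein, was at 12.03 and 13.36 (1.34). SDF2L1, a partner of HSPA5 co-chaperones, was at 11.28 and 12.43 (1.15). SIL1, the nucleotide exchange factor of HSPA5, was at 1.09 by its brightest probe and 0.58 by another, and the lectin chaperone calreticulin (CALR) at 1.06. Its membrane-bound relative calnexin (CANX) was at 0.93, just under the limit. The other direction was taken by CLGN, the calnexin relative of germ cells, at 8.10 and 5.84 (-2.26), and by the disulfide isomerase TXNDC5 (-1.08). The disulfide isomerases PDIA4 and PDIA6 were at 0.27 and 0.27, and the HSP90 chaperone of the ER, HSP90B1, at 0.14.

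The ER stress element, bound by ATF6 with NF-Y, joins a CCAAT box to CCACG over 9 bases. This pattern (CCAAT and CCACG with any 9 bases between them, either strand, so that each match overlaps a CCAAT match) was in 6 of the 25 ER chaperone promoters with a sequence (24.0%), against 0.163% of measured genes and 0.0806% of 27305 promoters. Promoters of 3 of the 6 are shown, with the element in capitals (RefSeq, GRCh38.p14). HSPA5 lies on chr9:125241294-125241593, minus strand, CALR on chr19:12938359-12938658, plus strand, and CRELD2, a disulfide isomerase partner (0.86), on chr22:49918384-49918683, plus strand.
HSPA5: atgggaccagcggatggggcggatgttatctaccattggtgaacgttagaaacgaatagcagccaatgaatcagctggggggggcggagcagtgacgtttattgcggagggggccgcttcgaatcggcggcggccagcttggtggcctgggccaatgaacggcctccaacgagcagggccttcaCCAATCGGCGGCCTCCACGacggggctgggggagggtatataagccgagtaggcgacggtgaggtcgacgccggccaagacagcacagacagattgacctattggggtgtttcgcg
CALR: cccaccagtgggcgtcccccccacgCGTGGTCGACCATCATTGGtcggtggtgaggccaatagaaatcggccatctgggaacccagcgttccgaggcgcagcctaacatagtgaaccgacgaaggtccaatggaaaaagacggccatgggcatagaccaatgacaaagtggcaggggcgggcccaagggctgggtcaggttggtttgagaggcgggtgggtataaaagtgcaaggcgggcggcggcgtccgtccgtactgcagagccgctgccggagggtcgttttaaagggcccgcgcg
CRELD2: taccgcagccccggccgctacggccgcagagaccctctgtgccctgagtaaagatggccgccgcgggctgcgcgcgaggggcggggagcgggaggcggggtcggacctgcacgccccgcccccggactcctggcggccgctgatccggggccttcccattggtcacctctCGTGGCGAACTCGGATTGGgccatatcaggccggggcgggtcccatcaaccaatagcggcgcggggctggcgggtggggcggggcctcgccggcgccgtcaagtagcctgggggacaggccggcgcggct
The other 3 were CANX, ERO1B (0.31) and HSP90B1, which held 2 matches. MANF, SDF2L1 and SIL1 had no match in their windows. Of 193 promoters of genes at least 2-fold higher, 2 (1.04%) held the element, both among those shown.

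The rest of the ER stress response was less uniform. Of 20 measured unfolded protein response and ERAD genes 10 were higher and 10 lower, with a median of -0.01 whose sign changed with the setting. XBP1, the spliced transcription factor of the response, was at 0.76 and EDEM1, a lectin of glycoprotein degradation, at 7.35 and 6.14 (-1.20). In the list of ATF4 targets and amino acid supply, 12 of 30 were higher (median -0.04). DDIT3 (CHOP), a transcription factor of prolonged ER stress, was at 8.27 with control and 9.54 with CDC73 siRNA (1.27). NUPR1, a small stress protein, was undetected with control siRNA and at least 2.77-fold higher. On the lower side VLDLR, a lipoprotein receptor, was at 7.86 and 6.64 (-1.22) and the secreted stanniocalcin STC2 at -1.01. ATF4, ATF3, asparagine synthetase (ASNS) and TRIB3, other genes of this branch, were at -0.08, -0.04, -0.03 and -0.37, and amino acid transporter subunits SLC3A2 and SLC7A5 at -0.99 and -0.73. Cytosolic heat shock proteins had none of 25 past 2-fold, against 5.79% of all measured genes in either direction.

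Among targets of p53, a group of stress genes was higher while p21 and others were not. Counts past 2-fold in these lists stand against 2.29% of all measured genes on the higher and 3.51% on the lower side. In the cell cycle and checkpoint list 9 of 13 were higher, 2 at least 2-fold: GDF15, a secreted stress cytokine (7.79 and 9.70, 1.91), and SFN, 14-3-3 sigma (6.95 and 8.44, 1.49). MDM2, which degrades p53, was detected with CDC73 siRNA only and higher by at least 0.49. In the list for apoptosis and redox 12 of 18 were higher and the median was 0.41; past 2-fold beside TP53I3 were BAX, which permeabilizes the outer mitochondrial membrane (1.12, but 0.20 by a second probe), and TIGAR, a fructose bisphosphatase (1.03), and, on the lower side, the BH3-only protein BID (-1.05). SESN1 was at -0.85. The DNA repair list also holds targets of other function, such as APAF1 (0.66), TRIAP1 (0.56) and RPS27L (0.35). Of its 10 measured members 9 were higher (median 0.45), none of them by 2-fold. XPC at 0.71 and DDB2 at 0.59 are both of nucleotide excision repair, and PCNA was at 0.01. The tenth, FANCC, was past 2-fold on the lower side. None of 14 measured genes of p53 and its regulators passed 2-fold. These targets were compiled in other cells, and in HEK293 cells E1B binds p53.

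Members of the BCL2 family lay on both sides. Of 25 members and caspases 16 were higher (median 0.22). HRK, a BH3-only protein that antagonizes BCL2, was at 6.30 and 7.73 (1.44). BID was at 8.24 and 7.19 (-1.05, second probe -1.16). BCL2 and MCL1, which protect cells, were at 0.67 and 0.03. No caspase passed 2-fold, as 5.79% of all measured genes did in either direction.

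**Figure D3:**
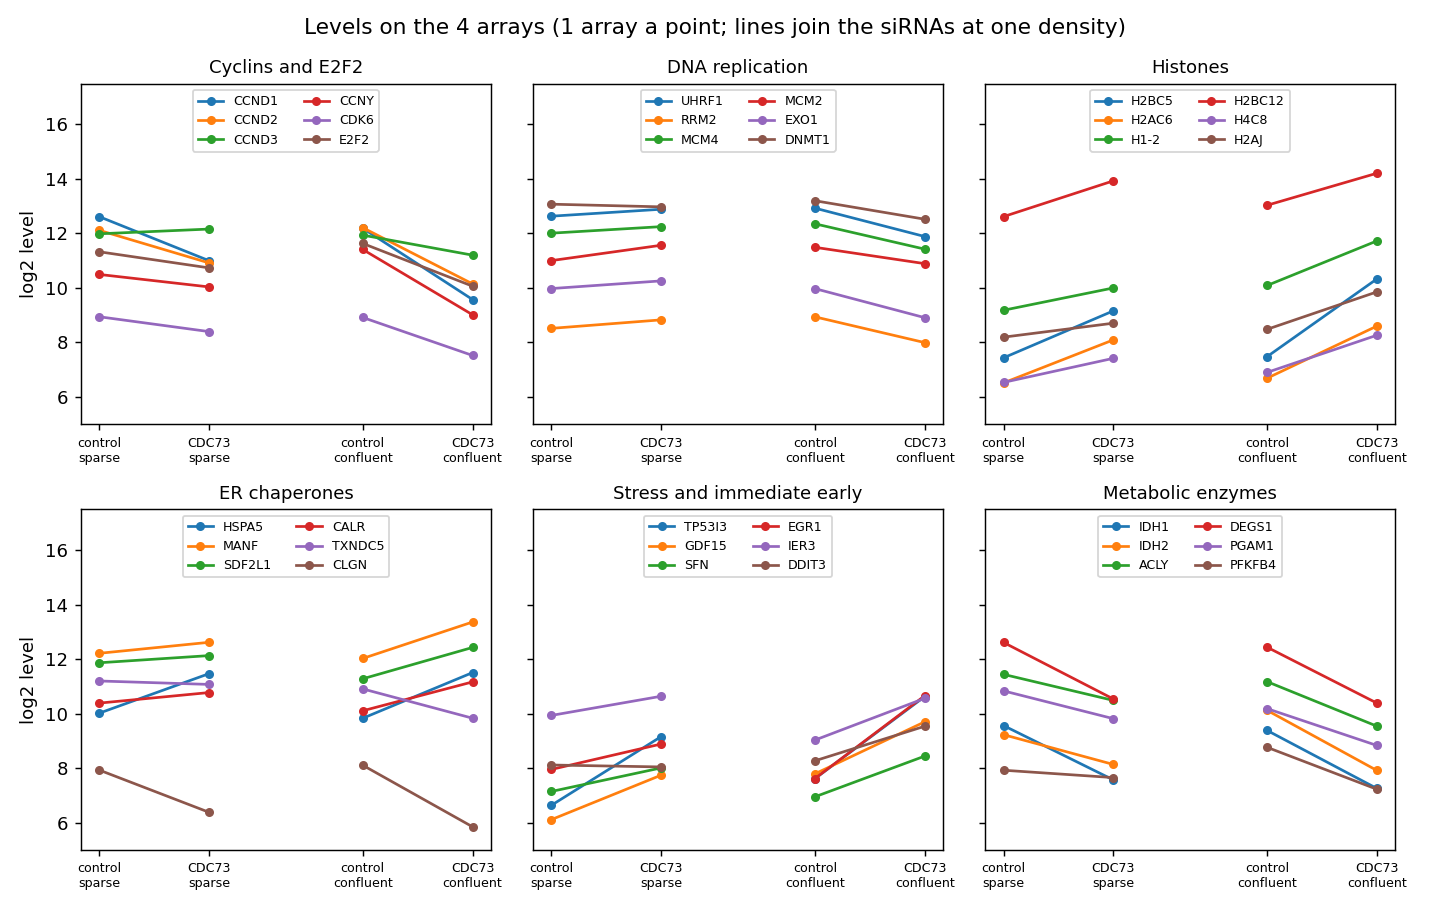
Normalized log2 levels of 36 genes in 6 groups on the 4 arrays, 1 point an array, with lines joining the 2 siRNAs at 1 density. In confluent cells all drawn cyclins, replication genes and metabolic enzymes are lower with CDC73 siRNA and all drawn histones and stress genes higher, while TXNDC5 and CLGN go against the other ER chaperones; in sparse cells 5 of the 6 replication genes are higher.

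Immediate early genes, which respond within minutes to growth factors and stress, were not on one side as a group. Of 25 measured 16 were higher, 3 at least 2-fold and 2 at least 2-fold lower (2.29% and 3.51% of all measured genes), with a median of 0.15. EGR1 stood apart by its size, and IER3, a survival factor induced by NF-kappaB and ERK, was at 9.03 and 10.56 (1.53). FOSL1, an AP-1 subunit, was undetected with control siRNA and at least 2.68-fold higher. FOSB, JUN and JUNB were at 0.72, 0.23 and 0.10, and FOS, detected with CDC73 siRNA only, was higher by at least 0.28. MYC, a growth-promoting factor, was at 8.75 with control and 7.70 with CDC73 siRNA (-1.04, second probe -1.16), and ZFP36L2, which destabilizes mRNAs, was detected with control siRNA only and lower by at least 1.17. The EGR1 promoter (RefSeq, GRCh38.p14, chr5:138465229-138465528, plus strand) is shown for its CArG boxes, the sites of serum response factor, with the 2 matches in capitals.
EGR1: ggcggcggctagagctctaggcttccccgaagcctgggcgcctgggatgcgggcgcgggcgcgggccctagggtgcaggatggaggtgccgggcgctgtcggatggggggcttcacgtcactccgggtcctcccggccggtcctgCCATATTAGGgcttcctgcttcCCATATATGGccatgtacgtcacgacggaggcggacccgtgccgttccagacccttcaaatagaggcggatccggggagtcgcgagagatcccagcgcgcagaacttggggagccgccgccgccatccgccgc
A CArG box was in 7 of 193 promoters of 2-fold higher genes (3.63%) and 3 of 283 of 2-fold lower genes (1.06%), against 1.14% of those of measured genes. SRF itself was at 0.54.

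Feedback genes of the ERK kinase pathway went both ways. ETV5, an ETS factor, was at 1.19 and PHLDA1, detected with CDC73 siRNA only, was higher by at least 0.71, whereas the phosphatase DUSP5 was at -0.64 and the receptor EPHA4 at -1.20, and the sign of the median of 12 genes changed with the setting.

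In the Wnt pathway, ligands, receptors and antagonists were mostly lower, 19 of 26 with a median of -0.29, and 2 at least 2-fold (3.51% of all measured genes). DKK3, a relative of the DKK antagonists, was at 9.03 and 6.67, 5.13-fold lower, and the receptor FZD9 at -1.08. FZD5, FZD4, WNT3 and the co-receptor LRP5 lay between -0.80 and -0.72, and ROR1, a receptor of non-canonical Wnt signals, at 0.80. Of 21 beta-catenin targets and nuclear factors 13 were higher (median 0.21), but the 3 past 2-fold, CCND1, MYC and LEF1 (10.04 with control and 9.04 with CDC73 siRNA), were lower (3.51% of all measured genes). AXIN2, a feedback inhibitor used as a readout of the pathway, was at -0.24.

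The lists of other contact and developmental pathways each had at most 1 member past 2-fold, against 5.79% of all measured genes in either direction. Counts in lists this short cannot be told apart from that share. Of 22 Notch genes none passed, 15 were lower, and NOTCH1 was at -0.90 and RBPJ, the nuclear partner of Notch, at 0.71. In the Hedgehog list GLI1, GLI2 and GLI3 were at -0.26, -0.37 and -0.40 and PTCH1 at 0.32; CCND2 alone of 12 passed. Among 24 Hippo components, MOB1B, an activator of LATS kinases, was detected with control siRNA only and lower by at least 0.13, and YAP1 at 0.54. None of 20 measured YAP/TAZ targets passed 2-fold: ANKRD1 was at 0.99 and CCN1 at 0.68, but CCN2 was at -0.41, and the median of 0.40 was 0.19 over the 16 detected on both arrays. In the TGF-beta and BMP list the receptor ACVR1 was at -1.04 and 13 of 23 were lower. Among 6 measured genes of the RUNX family and its partners, CBFB, the subunit that stabilizes RUNX on DNA, was at 9.05 and 6.79 (-2.25). RUNX3 was at -0.06 and RUNX1, detected with control siRNA only, lower by at least 0.22.

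Several metabolic enzymes were among the genes with the largest lower values. IDH1, the cytosolic isocitrate dehydrogenase, was at 9.38 with control and 7.25 with CDC73 siRNA, 4.38-fold lower. IDH2, its mitochondrial relative, was at 10.12 and 7.91, 4.62-fold lower. Both use NADP; the subunits of the NAD-dependent enzyme, IDH3A, IDH3B and IDH3G, were at -0.30, -0.06 and 0.10, and no other gene of 25 in the citric acid cycle list passed 2-fold. ACLY, which makes cytosolic acetyl-CoA from citrate, was at 11.17 and 9.54 (-1.63, second probe -1.25). DEGS1, the desaturase that completes ceramide, was at 12.44 and 10.39 (-2.05, second probe -1.72). UGCG, which adds glucose to ceramide (-1.02), and the elongase ELOVL5 (-1.03) were the other 2 of 26 lipid synthesis genes past 2-fold, while fatty acid synthase (FASN) was at 0.05. Of all measured genes 3.51% were 2-fold lower.

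Glycolysis and hypoxia genes were lower in 26 of 33, with a median of -0.20. PFKFB4, which sets the activator of phosphofructokinase, was at 8.76 and 7.22 (-1.54), phosphoglycerate mutase PGAM1 at -1.35 (second probe -0.59) and the hypoxia-induced demethylase KDM3A at -1.17. PGK1 and ENO1 were at -0.94 and -0.83, whereas GAPDH and LDHA, also of the pathway, were at -0.20 and -0.16. Cholesterol synthesis had none of 20 past 2-fold, against 5.79% of all measured genes in either direction.

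Large protein complexes differed by little as groups. Of 48 respiratory chain and ATP synthase genes 34 were higher, none 2-fold (2.29% of all measured genes), with a median of 0.14. Of 67 cytosolic ribosomal protein genes 48 were higher, with a median of 0.07 that was 0.47 relative to all genes under either median scaling; RPL7A was at 1.03 and RPL14 at -1.05. Of 39 proteasome genes 27 were higher, while PSMA2, an alpha subunit of its core, was at 9.40 and 7.57 (-1.83). Ribosome biogenesis factors were split, 13 of 30 higher, with POLR1B, a subunit of RNA polymerase I, at -1.07.

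Both groups received siRNA, and genes of the RNA interference machinery were lower in 8 of 12 with CDC73 siRNA (median -0.33). AGO2, the Argonaute that cuts targets, was at 10.59 and 9.50 (-1.09). DICER1 was at -0.99, with another detected probe at -0.91, and XPO5, the exporter of precursor microRNAs, at -0.84. TNRC6B, an Argonaute partner, was at 0.78, and AGO4, detected with CDC73 siRNA only, higher by at least 0.23.

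Among transcription elongation factors, of which 15 of 25 were higher, SUPT6H, a histone chaperone that rides with RNA polymerase II, was detected with CDC73 siRNA only and higher by at least 0.84. CDK12, a kinase of the polymerase tail, was at 0.83 and the P-TEFb cyclin CCNT2 at -0.98. None of 25 H2B ubiquitylation and linked methylation genes passed 2-fold, against 5.79% of all measured genes, a share from which a list this short cannot be told apart. The ubiquitin ligases RNF20 and RNF40 were at -0.32 and 0.33, and the H3K36 methyltransferase SETD2 at -0.68.

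Cilium genes were a group with low levels. Of 20 measured 16 were higher and 6 at least 2-fold, none lower by 2-fold (2.29% and 3.51% of all measured genes), but 4 of the 6 were detected on the CDC73 siRNA array only, and the median of 0.47 was 0.19 over the 15 detected on both arrays. DNAI3 and DNAI7, intermediate chain proteins of axonemal dynein, were at least 4.09-fold and 4.02-fold higher. DNAL1, a dynein light chain, was at 6.70 and 7.83 (1.13), and RFX3, a transcription factor of ciliary genes, at 1.02. DNAAF1, a dynein assembly factor, and RSPH1, of the radial spoke, were the other 2, higher by at least 0.38 and 0.38 on the log2 scale. Outside the list, the axoneme proteins CFAP300 (1.36, other probe 1.53) and PIERCE1 (1.22, other probe 1.38), grouped here after their values were seen, were higher too.

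Junction genes were lower in 22 of 31. The desmosomal cadherin DSG2 was undetected with CDC73 siRNA and at least 2.66-fold lower. Desmoplakin (DSP) was at -1.04, but at -0.34 in the processing setting with its smallest value, and the adhesion protein NECTIN3 was at -1.03. GJA1, the gap junction protein connexin 43, went the other way at 9.29 and 10.74 (1.45), as did the desmosomal plaque protein PKP2 (1.12). In the nuclear envelope list TMPO, lamina-associated polypeptide 2, was undetected with CDC73 siRNA and at least 3.41-fold lower, and the nucleoporin NUP153 was at -1.06. In the smooth muscle and actin list 10 of 23 were higher. Smooth muscle actin (ACTA2) was at 12.14 and 13.20 (1.05), but the calponin CNN2 was at -1.07, MYL9, a myosin light chain, at -0.58 and the actin-binding protein TAGLN at -0.30, and TPM4, a tropomyosin, was detected with CDC73 siRNA only and higher by at least 0.47. The protease PLAU was lower by at least 0.74 on the log2 scale, and 16 of 26 matrix and protease genes were higher. Of 31 interferon-related genes 2 were at least 2-fold higher (2.29% of all measured genes), the antiviral membrane protein BST2 (1.34) and IFI44L (1.22), while IRF7 and IRF1 were at -0.99 and -0.91. Among NRF2 targets, heme oxygenase HMOX1 was at 1.13, NQO1, a quinone reductase, at -0.36, and the aldo-keto reductase AKR1B10, undetected with control siRNA, higher by at least 0.77. The DNA glycosylase NEIL2 was detected with control siRNA only and lower by at least 0.24.

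Further genes had a measurable level with 1 siRNA only, so that their difference is a bound. Bounds here and above hold for the main processing only. Over all processing settings the smallest differences were 1.76 for CLCA2, 1.43 for DNAI3 and -0.85 for TMPO on the log2 scale. On the higher side CLCA2, a regulator of chloride channels, was at least 4.96-fold, the melanoma antigen gene MAGEB2 at least 3.09-fold, the ribokinase RBKS at least 3.07-fold and the kinase FES at least 2.94-fold higher. On the lower side the calpain CAPN5 was at least 3.91-fold, GATC, of mitochondrial glutaminyl-tRNA formation, at least 3.21-fold, the retinoic acid hydroxylase CYP26B1 at least 3.15-fold and the oligosaccharyltransferase STT3B at least 2.91-fold lower.

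Sparse cells, on their own pair of arrays, allow the same siRNA contrast to be set beside this one. There 217 genes (2.13% of 10182) passed 2-fold on the higher and 185 (1.82%) on the lower side, 3.95% in all, and 53.9% were higher and 46.1% lower by any size. Of the 240 genes higher in confluent cells 199 were measured in sparse cells; 159 of these were also higher there, 43 by 2-fold, and 101 were within 1.5-fold of the control. Of the 368 lower genes 343 were measured; 278 were also lower, 77 by 2-fold, and 172 were within 1.5-fold. In each set 1 gene was 2-fold the other way, C1D, a co-repressor of nuclear receptors, and CARMIL2, a regulator of actin capping, each under the detection limit on at least 1 of the 4 arrays and named after their values were seen. These genes were chosen by their size in confluent cells, so smaller values on another pair of arrays are likely from the choice alone. Whether any gene's effect differed between densities was not tested, since there is 1 array a group.

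Replication-dependent histones had a median of 0.73 in confluent and 0.81 in sparse cells. ER chaperones had medians of 0.27 and 0.27 through different values of their members: of the 5 past 2-fold in confluent cells only HSPA5 (1.45) was so in sparse cells, where MANF was at 0.40, SDF2L1 at 0.26, CALR at 0.39 and SIL1 at 0.58, while PDIA4 was at 1.01 and HYOU1, an HSP70-like exchange factor, at 1.08 (0.52 in confluent cells). TP53I3 (2.52 in sparse cells), HIRIP3 (-2.79), DEGS1 (-2.08), IDH1 (-1.99) and CBFB (-1.89) were beyond 2-fold at both. Other groups had a median below 0 in confluent cells and above 0 in sparse cells. G1 cyclins and kinases were at -0.42 in confluent and 0.03 in sparse cells, and fork and nucleotide genes at -0.31 and 0.15. Glycolysis was at -0.20 and 0.08, RNA interference genes at -0.33 and 0.25, and Wnt ligands and receptors at -0.29 and 0.20. Still, 3 of 17 measured G1 genes were at least 2-fold lower in sparse cells (1.82% of all measured genes), among them CCND1 (-1.62) and CCND2 (-1.20). Mitotic kinases and cyclins, with a sparse median of -0.14, and spindle genes, with one of -0.15, were below 0 at both densities. UHRF1 was at 0.25 in sparse cells, RRM2 at 0.31 and MCM4 at 0.24, all on the other side of 0 from their confluent values.

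Of genes past 2-fold in confluent cells and detected on all 4 arrays, the largest excess of the confluent over the sparse difference was that of EGR1 (3.04 and 0.93). EAPP, an E2F-associated protein, was at 1.20 in confluent and -0.83 in sparse cells, TXNL1, a thioredoxin-like protein of the proteasome, at 1.18 and -0.51, and TAF15 at 1.87 and 0.29. DDIT3 was at 1.27 and -0.07, and the drug-metabolizing enzyme CYP3A5 at 1.17 and -0.22. In the other direction CCNY was at -2.40 and -0.46, the receptor SCARF2 at -1.84 and -0.13, the importin IPO5 at -1.36 and 0.32, GEMIN4, of the SMN complex, at -1.10 and 0.53, the polycomb protein CBX2 at -1.23 and 0.24, and NPAT at -1.07 and 0.39. The confluent difference of CBX2 was -0.22 in the processing setting with its smallest value. CCND1 was lower at both densities, by more in confluent cells (-2.62 and -1.62), and p21 was at -0.19 in confluent and 1.04 in sparse cells.

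**Figure D4:**
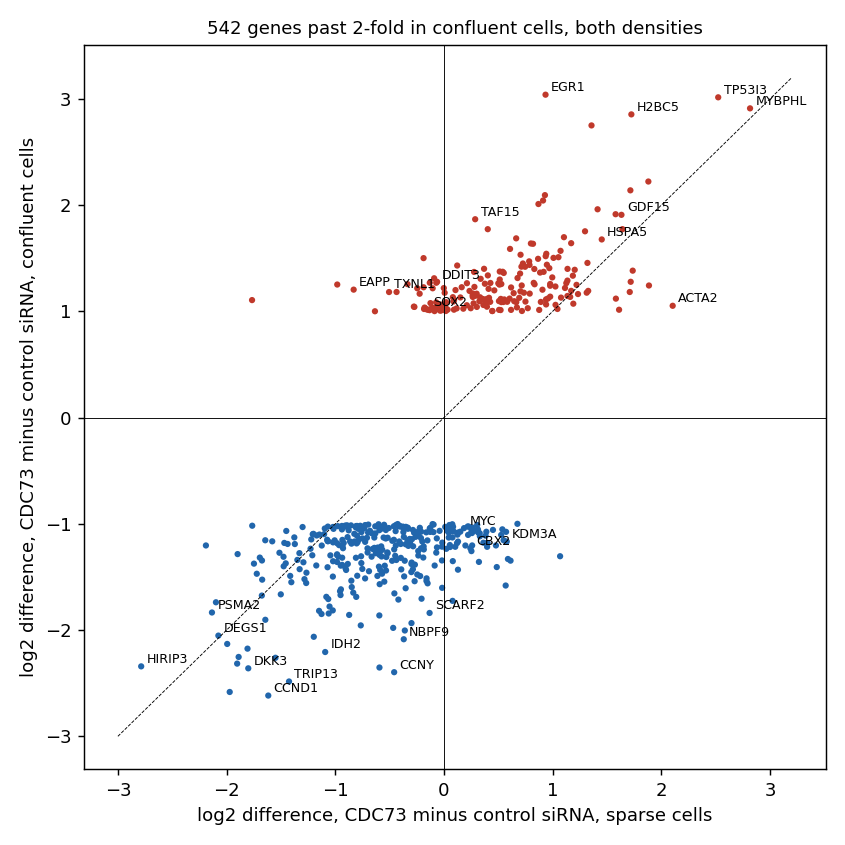
Log2 difference between CDC73 and control siRNA in confluent cells against that in sparse cells, for the 542 genes past 2-fold in confluent cells and measured in sparse cells, 1 point a gene. The dashed line marks equal differences; TP53I3, MYBPHL, DEGS1 and IDH1 are beyond 2-fold on both axes, while EGR1, TAF15 and CCNY lie far from the line.

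Genes at least 2-fold higher were shorter than those lower by the annotated span from start to end. The median length was 28523 bp over 10493 measured genes with an annotation, 20440 bp for higher and 35525 bp for lower genes. Of genes under 5 kb 3.63% were higher and 2.12% lower, and of genes from 100 to 200 kb 1.69% and 4.27%, but genes of 200 kb or more had 3.11% and 3.25%. Across all measured genes length and difference were weakly related (Spearman's rho -0.066 in confluent and 0.119 in sparse cells, as a description over genes that share the same arrays). TATAAA was in 29 of 193 promoters of higher genes, 7.07% of those of lower genes and 5.67% of those of measured genes. An E2F-like site (TTTGGCGC) was in 0 of 193 promoters of higher genes, 1.06% of lower and 1.1% of measured genes.

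**Figure D5:**
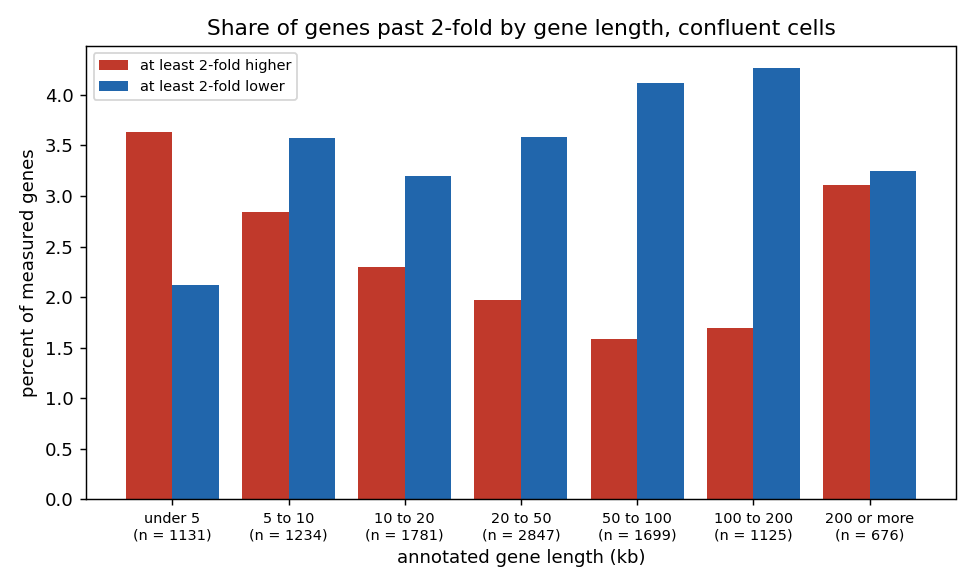
Percent of measured genes at least 2-fold higher (red) or lower (blue) with CDC73 siRNA in confluent cells, by annotated gene length, with the number of genes in each bin under the axis. The lower share exceeds the higher share in all bins from 5 kb up and falls below it under 5 kb.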

How the data were processed

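Total RNA was amplified and labelled as biotin cRNA for Illumina bead arrays, per the labels' protocols. The authors deposited linear probe intensities that were not normalized, and log2 values of the same arrays, per the file headers; their software is not given in the sources used here. The intensities came without detection p-values of the scanner software. In their place 452 olfactory receptor probes, taken as silent in HEK293 cells, served as the negative panel. Intensities were background-corrected (normexp of limma 3.58.1, R 4.3.3, with the panel as negative controls, offset 16), quantile normalized over the 4 arrays and put on the log2 scale, which was tested on simulated data with known folds. At a detection p under 0.01 an array detected from 28.0% to 30.5% of its probes.

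Of 48803 probes with values, 28098 had 1 gene symbol in the platform annotation, 13 several and 20692 none; each gene was read from whichever of its probes was brightest on average over the 4 arrays. The limit was 2-fold. A gene undetected on 1 array has a bound, against the detection limit or its own value, whichever was higher. Named genes were the 6 PAF1 complex subunits, the 40 largest differences in each direction among genes detected on both arrays, the 36 genes with all probes past 2-fold, the 10 largest bounds in each direction, the 15 in each direction whose difference exceeded the sparse one most among those past 2-fold and detected on all 4 arrays, and, from 53 gene lists, members past 2-fold and up to 8 others. An item among them is not reported here. Genes named otherwise were chosen after their values were seen. The members of the comparison and the lists were chosen with earlier results of these data known. Alternatives were other background corrections, offsets, scalings, detection rules, probe summaries and fold limits, and the authors' log2 table. Lengths and promoters came from RefSeq; 7 motifs were searched in 300-base windows.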

Additional observations from a re-analysis of the deposited data

How the results depend on the processing

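The counts of 240 higher and 368 lower genes depended on the background left in the values and on the scaling. Without background correction they were 87 and 142, with an offset of 50 they were 121 and 190, 149 and 240 when background was fitted by maximum likelihood, and 97 and 166 in the authors' log2 table. Median scaling gave 62 and 1240, and median scaling over probes detected on all 4 arrays, an alternative added after the data were seen, 383 and 238. A limit of 1.5-fold gave 1185 and 1392 and one of 3-fold 32 and 48. The other 6 alternatives stayed within 1.5 times of both counts: 234 and 358 with the confluent arrays normalized alone, 241 and 371 with a detection p under 0.05 or no detection filter, 179 and 280 over genes detected on both arrays, 171 and 259 with the mean of all probes, and 198 and 308 with undetected values at their bound. Of the higher genes 62, and of the lower genes 94, were past 2-fold in the same direction under every background, scaling, probe and bound setting and in the authors' values, with median scaling read relative to the median of all genes; among the 40 largest in each direction these were 29 and 31. TPM4, a tropomyosin detected on 1 array, was the one named gene past 2-fold that reversed, at -0.2521 in the authors' log2 table. Other named genes fell short of 2-fold in the setting with their smallest value, among them UGCG (-0.52), VLDLR (-0.59), ETV5 (0.45) and EAPP (0.65). The list medians moved by more than the probe SD for histones (0.36 without background correction, 0.11 without a detection filter), cilium genes (0.096) and YAP/TAZ targets (0.020) without that filter, ribosomal proteins (0.47 with median scaling) and RUNX genes (-0.14 with values at their bound, and -0.21 both in the authors' log2 values and with the mean of all probes). Within confluent cells no paired analysis was possible because each group has 1 array, and for the same reason no array could be left out. Signal over background limits the dim genes most. The causes of these shifts were not tested.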
